A study of Mus musculus with 16 samples.

Results

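The mouse genes named Zfp600 to Zfp999 are numbered members of the largest family of DNA-binding proteins in mammals, the C2H2 zinc finger genes. Members were taken by symbol and by the protein-coding label in the deposited table, and a member was kept where at least 10 counts were present in at least 4 of the 16 libraries. The table held 170 genes of that name and label, of which 141 were kept. All 141 were also among the 15610 genes tested of the 46320 listed. Members were thus chosen by name and by their counts over all libraries. Of the 141, 138 had 10 counts in all 16 libraries. Just inside the limit were Zfp941 with 5 libraries, Zfp972 with 14 and Zfp979 with 15, and just outside it were Zfp811 with 3, Zfp985 with 1 and Zfp786 with 1. Of the 29 members left out, 26 had no library with 10 counts. No member was kept through the libraries of 1 group only.

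The cells were macrophages grown from the bone marrow of C57BL6/J mice, the same strain in every group, for 7 days in medium with L929-cell supernatant. All groups shared the plating of 400000 cells and 4 hours of starvation in 0.5% serum. Each treatment then lasted 4 hours: PBS as the vehicle, thrombin alone, resting platelets purified from blood of the same strain, or platelets with thrombin, called activated platelets. The protocol gives thrombin at 0.01 U/mL, while the labels of the thrombin libraries give 0.1 U/mL, so comparisons between the thrombin groups rest on an uncertain dose. Each group had 4 libraries of poly(A) RNA. The labels do not say that the libraries of a group came from separate animals or cultures, so p-values measure the spread between these libraries, which may be partly technical.

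C2H2 zinc finger proteins read DNA with strings of finger modules that each contact a few bases, and many carry a KRAB domain. A KRAB domain recruits the scaffold protein Trim28, which in turn brings the histone methyltransferase Setdb1, HP1 proteins and the NuRD complex, and so lays down silent chromatin, above all over retrotransposons. Many KRAB zinc finger genes arose by tandem duplication and stand in clusters of near-identical copies, which makes short reads hard to assign. Others in the numbered series carry no KRAB domain and act as cofactors of known complexes.

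The promoters of 4 members are shown because these genes carry the main patterns: Zfp715 was lower and Zfp691 higher with activated platelets, and Zfp971 and Zfp931 are neighbours on chromosome 2 that were both lower. Each run is the 250 bases before the RefSeq gene start on GRCm38.p6, read 5′ to 3′ on the gene's own strand, and capitals mark matches to the GC box, GGGCGG on either strand.
Zfp715 promoter, chr7:43313301-43313550, minus strand: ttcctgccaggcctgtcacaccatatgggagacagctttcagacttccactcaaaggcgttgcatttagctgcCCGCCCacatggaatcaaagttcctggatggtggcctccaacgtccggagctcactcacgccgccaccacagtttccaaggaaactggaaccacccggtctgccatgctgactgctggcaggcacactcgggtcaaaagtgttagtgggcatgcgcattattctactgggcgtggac
Zfp691 promoter, chr4:119174196-119174445, minus strand: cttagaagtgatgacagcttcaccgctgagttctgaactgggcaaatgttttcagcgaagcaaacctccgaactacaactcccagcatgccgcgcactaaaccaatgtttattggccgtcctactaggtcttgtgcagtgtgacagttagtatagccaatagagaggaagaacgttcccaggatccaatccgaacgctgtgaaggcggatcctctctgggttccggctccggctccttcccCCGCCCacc
Zfp971 promoter, chr2:178023034-178023283, plus strand: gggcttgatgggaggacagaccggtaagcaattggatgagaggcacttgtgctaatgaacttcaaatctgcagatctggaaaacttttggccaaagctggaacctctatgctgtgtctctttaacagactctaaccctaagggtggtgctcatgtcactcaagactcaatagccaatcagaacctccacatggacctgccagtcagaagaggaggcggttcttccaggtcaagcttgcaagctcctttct
Zfp931 promoter, chr2:178078426-178078675, minus strand: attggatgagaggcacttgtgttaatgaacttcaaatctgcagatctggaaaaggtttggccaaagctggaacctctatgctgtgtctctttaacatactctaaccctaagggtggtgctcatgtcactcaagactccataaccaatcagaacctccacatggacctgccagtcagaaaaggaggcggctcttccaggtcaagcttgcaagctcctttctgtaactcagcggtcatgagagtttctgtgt
The windows of Zfp971 and Zfp931 are offset, and over the 220 bases that aligned with each other 212 were identical, which is 96.4%. The other 60 positions of the alignment were gaps. Zfp715 and Zfp691 each held 1 GC box, and Zfp971 and Zfp931 held none of the motifs searched.

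A RefSeq promoter was matched by symbol for 124 of the 141 members. The members are protein-coding and passed the count filter, while all promoters were taken without either choice, so the sets are unlike. On either strand, the GC box GGGCGG was present in 52 of the 124 (41.9%) and in 32.9% of all 27025 promoters of this length. The ETS motif CCGGAAGT was present in 9 members (7.26%) and in 2.93% of all promoters, and the palindromic NRF1 motif in 4 members (3.23%) and 0.781% of all. The YY1 motif GCCATNTT was present in 7 members (5.65%) and 3.93% of all promoters. The signal-responsive motifs were no more frequent among members: the cAMP element TGACGTCA was in 1 member (0.807%) and 1.62% of all promoters, and the AP-1 motif TGANTCA in 6 members (4.84%) and 6.87% of all. The median member window held 9 CG dinucleotides, against 6 over all promoters.

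Library totals were 22.6 to 27.7 M (mega) counts with vehicle, 23.1 to 26.7 with thrombin, 24.9 to 26.4 with resting platelets and 28.0 to 30.6 for activated ones. The 11 macrophage markers, among them Csf1r, Adgre1 and Lyz2, were present in every group and summed to 18775 to 24374 CPM per library (CPM, counts normalised to 1 M counts per library). The 21 platelet and megakaryocyte markers summed to 276 to 335 CPM with vehicle, 297 to 319 with thrombin, 310 to 356 with resting platelets and 493 to 588 for activated ones. Gp9, a platelet adhesion receptor subunit, was at 0 counts in every vehicle library. Of the 19 platelet markers tested, 17 were called higher with activated platelets than with vehicle and 0 lower. The 6 erythroid markers summed to 0 to 0.0733 CPM with vehicle and 7.78 to 14.1 CPM with activated platelets, while 7 lymphocyte markers summed to 13.6 to 25.5 CPM with vehicle and 3.03 to 7.42 CPM with activated platelets. Only 2 of these erythroid markers and 1 of these lymphocyte markers were tested. The latter was Ighm, lower by 2.07 on the log2 scale with activated platelets than with vehicle. Summed stromal markers lay between 1942 and 5017 CPM over all groups, and none of the 4 stromal markers tested passed the test in any comparison. The part of these cells in the member differences below was not tested, and in bulk RNA a different number of cells of a type and a different amount of RNA per cell cannot be told apart.

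The members were low to moderate in abundance. Their median was 10.7 CPM, with quartiles of 5.05 and 18.9 CPM, against a median of 19.0 CPM over all tested genes. Mean levels were under 1 CPM for 3 members, 1 to 10 CPM for 64, 10 to 50 CPM for 63 and 50 CPM or more for 11. Together the members took 0.264% ± 0.00683 (SD, n = 4) of all counts with vehicle, 0.264% ± 0.00699 with thrombin, 0.267% ± 0.00444 with resting platelets and 0.250% ± 0.00483 for activated ones. The share was 0.245% to 0.256% in the activated platelet libraries and 0.255% to 0.273% in the 12 others, so the highest activated library overlapped the lowest of the rest.

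On the scale of CPM per kilobase of exon, which allows levels of different genes to be compared, Zfp740 was highest at 28.1, followed by Zfp710 at 23.4, Zfp706 at 18.3, Zfp703 at 17.8 and Zfp664 at 17.1. Zfp706 restrains the pluripotency factor Klf4 in embryonic stem cells, and Zfp703 is a transcriptional corepressor known as a breast cancer gene. Zfp715 stood 23rd at 6.14 and Zfp691 73rd at 2.33. The lowest levels per kilobase were those of Zfp827 at 0.127 and Zfp941 at 0.0644.

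**Figure D1:**
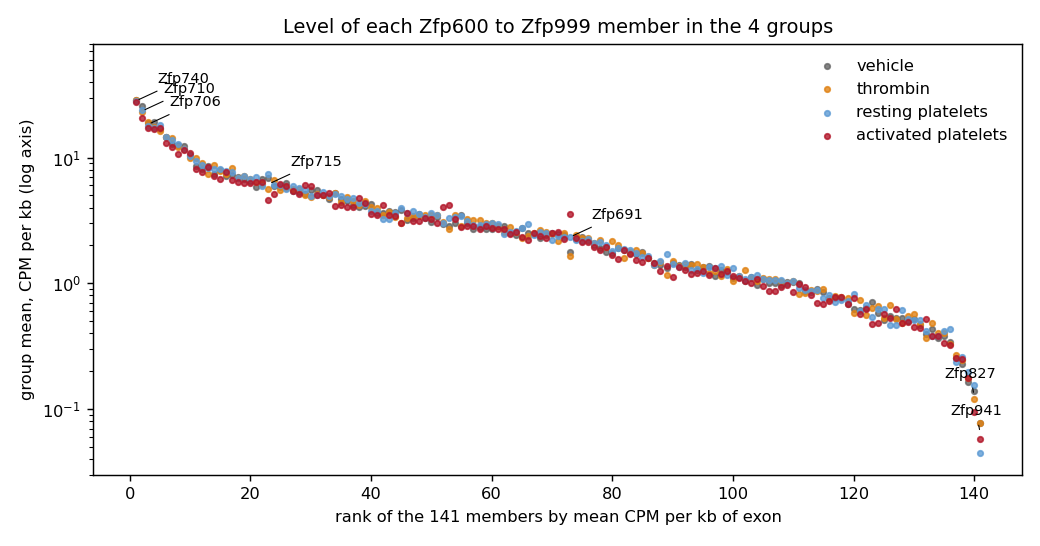
Mean level of each of the 141 members in the 4 groups, in CPM per kilobase of exon on a log axis, with members ranked on the x axis by their mean over all libraries and 1 point per group. The points of a member lie close together for most ranks, and Zfp691 at rank 73 and Zfp715 at rank 23 are among those whose groups spread apart.

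Most members differed little between the 4 groups. The ratio of the highest to the lowest group mean had a median of 1.17 and was under 1.2 for 93 of 141 members. It was 1.5 or more for 5: Zfp691 at 2.13, Zfp941 at 1.72, Zfp715 at 1.63, Zfp827 at 1.63 and Zfp608 at 1.54. Zfp941 was close to the detection limit, at a mean of 0.354 CPM, and Zfp827 varied with the replicate number, its replicate 1 libraries averaging 1.34 times the others. Over the members, replicate 1 was between 0.859 times (Zfp995) and 1.41 times (Zfp979) the mean of replicates 2 to 4, with a median of 0.989.

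The table lists genes on GRCm39 and holds counts that need not be whole, and how reads that fit several places were assigned is not given in the sources used here. For 22 members the counts were not whole in any of the 16 libraries, and for 41 they were whole in all. Zfp966 and Zfp967 on chromosome 2 differed by at most 1.17% of their mean CPM in each of the 16 libraries, so their signals cannot be told apart. Among the members described singly below, Zfp931, Zfp971, Zfp984, Zfp626, Zfp960 and Zfp992 had no library with a whole count, and their values as single genes are uncertain. For others counts were not whole in part of the 16 libraries, among them Zfp706 and Zfp935 (14 libraries), Zfp747 (13) and Zfp839 (10). These too may share reads with other genes. Overlap with another listed gene was present for 48 members, among them Zfp608, Zfp821, Zfp710, Zfp628, Zfp809, Zfp638, Zfp800 and Zfp945. The strand setting of the counting is not given in the sources used here, so reads of antisense partners cannot be told apart.

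Zfp715 was the 1 member called with thrombin alone. It lies on chromosome 7 at 42945946 to 42962724 (GRCm39, minus strand), and its counts were whole in every library. Its levels with vehicle were 44.7, 42.4, 43.3 and 40.2 CPM in replicates 1 to 4, and with thrombin they were 32.4, 36.6, 36.0 and 33.4 CPM. All 4 thrombin libraries lay below all 4 vehicle libraries. The log2 fold change was -0.30 ± 0.05 (SE), a level 1.23-fold lower, with an adjusted p of 0.0200 (edgeR quasi-likelihood test, Benjamini-Hochberg). No member was called higher and 1 was called lower, 0.709% of members, where 0.288% of all genes tested were called, 0.0897% higher and 0.199% lower. Without adjustment, 13 members (9.22%) were higher and 7 (4.96%) lower at 0.05, where 5.54% and 5.90% of all genes were. The DESeq2 test called 1 member higher and 3 lower, where it called 1.02% of all genes. The median log2 fold change was 0.04 over the members and 0.01 over all genes.

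The thrombin call of Zfp715 was narrow. It was lost when vehicle 1, vehicle 2, thrombin 1 or thrombin 4 was left out, with adjusted p of 0.0584, 0.0526, 0.0899 and 0.0603, when replicate 1 was left out of all groups, with 0.357, and when only the groups compared were fitted, with 0.117. The log2 fold change stayed between -0.31 and -0.25 in these fits. With the replicate number as a block, Zfp715 had an adjusted p of 0.000556, and 14 members were called, 9 higher and 5 lower. The block with a correction for transcript GC content and length left 3 members, 0 higher and 3 lower.

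Zfp629, on chromosome 7 at 127206200 to 127214958, had values of 30.4, 30.7, 32.9 and 29.3 CPM with vehicle and 22.5, 23.5, 28.5 and 23.9 CPM with thrombin. Its groups also did not overlap, with a log2 difference of -0.33 ± 0.08, but its adjusted p was 0.0972. In the fit with the replicate block that p was 0.000451. Zfp777, with a log2 difference of -0.26 ± 0.06 and an adjusted p of 0.106, stood likewise.

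With resting platelets, Zfp626 was the 1 member called. It lies on chromosome 7 at 27504165 to 27522348, plus strand. Its levels were 17.7, 19.4, 20.1 and 18.4 CPM with vehicle and 22.1, 23.1, 22.6 and 20.9 CPM with resting platelets. Each resting platelet library lay above each vehicle library. The log2 fold change was 0.23 ± 0.05, with an adjusted p of 0.0227. This is 0.709% of the members, where 3.39% of all genes were called, 2.07% higher and 1.32% lower. No member was called lower. Without adjustment 18 (12.8%) were higher and 7 (4.96%) lower at 0.05, where 9.80% and 9.43% of all genes were. The DESeq2 test called 5 members higher and 0 lower, where it called 6.11% of all genes. The median log2 fold change of the members was 0.05, against -0.0031 over all genes.

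The Zfp626 call was lost without vehicle 1, vehicle 4, resting platelets 1 or resting platelets 2, with adjusted p of 0.0649, 0.0569, 0.0611 and 0.0770, without replicate 1 in all groups, with 0.215, and in the fit of the compared groups alone, with 0.0683. With the replicate block 18 members were called, 13 higher and 5 lower, and with the GC and length correction added 13 were, 10 higher and 3 lower. Zfp810, at 11.5, 11.9, 11.1 and 10.3 CPM with vehicle and 14.5, 12.7, 12.9 and 12.9 CPM with resting platelets, had an adjusted p of 0.0701. Zfp691, at 5.45, 5.52, 6.46 and 5.42 CPM with resting platelets against 3.86, 4.73, 4.06 and 4.50 CPM with vehicle, had 0.0992. Neither gene's groups overlapped, and in the blocked fit both passed, Zfp810 at 0.00914 and Zfp691 at 0.0187.

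More members were called with activated platelets. Against vehicle 6 rose and 14 fell, 14.2% of the 141, where 25.8% of all genes tested were called, 12.2% higher and 13.6% lower. The median log2 fold change was -0.06 over the members and -0.0040 over all genes, and 93 of 141 members had a negative value. Without adjustment 9 (6.38%) were higher and 30 (21.3%) lower at 0.05, where 17.4% and 19.0% of all genes were. With the replicate block 10 rose and 30 fell, and with the GC and length correction added 11 and 29. Without replicate 1 in all groups 11 members were called, 5 higher and 6 lower. Among genes whose level lay between the members' 25th and 75th percentiles, 7 of 71 members (9.86%) and 23.6% of all 3201 genes were called.

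**Figure D2:**
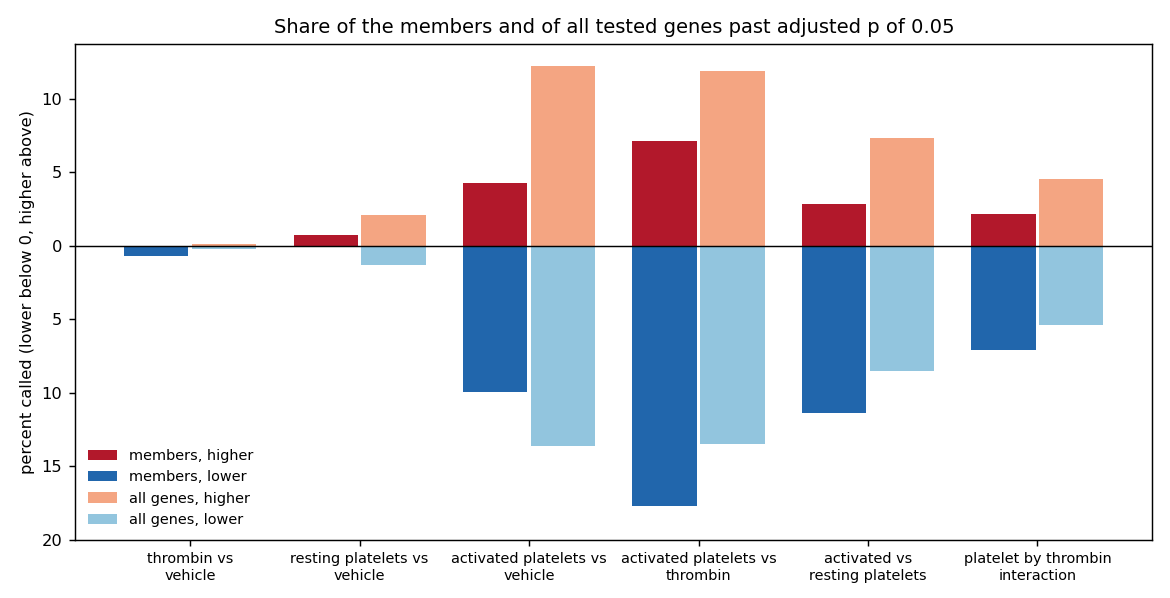
Share of the 141 members (dark bars) and of all 15610 tested genes (light bars) past an adjusted p of 0.05 in each of the 6 comparisons, in percent, with genes higher drawn above 0 and genes lower drawn below 0. Members were called in 14.2% against vehicle with activated platelets, below the 25.8% of all genes, and in 24.8% against thrombin, close to the 25.4% of all genes.

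Zfp691 rose most among the members. It lies on chromosome 4 at 119026710 to 119031429 (minus strand), its counts were whole, and its promoter is printed above. Its levels were 3.86, 4.73, 4.06 and 4.50 CPM with vehicle and 6.78, 8.25, 9.81 and 9.74 CPM with activated platelets. Each activated library was above each vehicle library, by 1.01 ± 0.13 on the log2 scale, 2.02-fold, with an adjusted p of 3.39e-05. With thrombin alone its values were 4.89, 3.62, 3.39 and 4.30 CPM, spread to both sides of the vehicle range, and the log2 difference from vehicle was -0.08 ± 0.14 with an adjusted p of 0.910. The group means ran from 4.05 ± 0.683 CPM (SD, n = 4) with thrombin and 4.29 ± 0.394 with vehicle, which did not differ beyond their spread, to 5.72 ± 0.499 with resting and 8.64 ± 1.44 with activated platelets.

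Zfp608 rose too. It represses the recombination genes Rag1 and Rag2 in thymocytes. Its levels were 20.8, 17.2, 22.7 and 24.0 CPM with vehicle and 29.6, 30.5, 31.6 and 31.5 CPM with activated platelets, with no overlap. The log2 fold change was 0.54 ± 0.08, with an adjusted p of 0.000160. Zfp609, its close relative and a partner of the cohesin loader Nipbl, was at 45.1, 49.4, 48.1 and 47.0 CPM with vehicle and 51.6, 56.9, 59.8 and 55.4 CPM with activated platelets. The pair rose together, Zfp609 by 0.24 ± 0.05 with an adjusted p of 0.00296.

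The other 3 rises were Zfp821, Zfp747 and Zfp800. Zfp821, on chromosome 8 at 110421884 to 110451564, was at 8.98, 8.95, 8.78 and 7.28 CPM with vehicle and 10.9, 10.8, 12.5 and 11.9 CPM with activated platelets, a log2 fold change of 0.44 ± 0.09 with an adjusted p of 0.00256. Zfp747 rose by 0.24 ± 0.07 and Zfp800 by 0.20 ± 0.05, with adjusted p of 0.0201 and 0.00735, and neither gene's groups overlapped. The Zfp747 call was lost without vehicle 4, activated platelets 3 or replicate 1 in all groups, with adjusted p of 0.0580, 0.0518 and 0.0589.

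Zfp715 showed the largest fall. Its activated platelet libraries were at 28.7, 26.9, 27.9 and 28.6 CPM, and its resting platelet libraries at 47.3, 43.7, 47.7 and 44.5 CPM. All activated libraries lay below all libraries of the other 3 groups. Against vehicle the log2 fold change was -0.61 ± 0.05, 1.52-fold lower, with an adjusted p of 1.95e-07, and it was -0.58 without replicate 1. The order of group means was 28.0 ± 0.817 CPM (SD, n = 4) with activated platelets, 34.6 ± 2.04 with thrombin, 42.7 ± 1.88 with vehicle and 45.8 ± 1.98 with resting platelets, and the vehicle and resting platelet libraries overlapped.

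Zfp647 fell next most by size but is scarce. It was at 2.76, 2.95, 2.53 and 2.71 CPM with vehicle and 1.72, 1.73, 1.72 and 2.16 CPM with activated platelets, a log2 fold change of -0.57 ± 0.14 with an adjusted p of 0.00554. Without replicate 1 in all groups that p was 0.0524. Zfp710, among the most abundant members, was at 177, 183, 172 and 179 CPM with vehicle and 141, 145, 152 and 138 CPM with activated platelets. It fell by 0.30 ± 0.04 on the log2 scale, with an adjusted p of 5.48e-05 and no overlap.

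Zfp971 and Zfp931, whose promoters are printed above, fell by similar amounts. Zfp971, at 177665077 to 177677652 on chromosome 2 (GRCm39), was at 21.5, 21.4, 23.8 and 20.8 CPM with vehicle and 16.7, 18.6, 16.4 and 17.3 CPM with activated platelets. Zfp931, at 177708239 to 177721858 on the opposite strand, was at 6.01, 6.45, 5.97 and 6.96 CPM with vehicle and 4.57, 5.27, 5.07 and 4.97 CPM with activated platelets. The groups of neither gene overlapped. The log2 fold changes were -0.34 ± 0.06 and -0.35 ± 0.08, with adjusted p of 0.000330 and 0.00501. Neither gene's counts were whole in any library, so they may share reads and are not taken as independent measurements.

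Of the other falls, Zfp629 fell by 0.33 ± 0.08, Zfp945 by 0.27 ± 0.07 and Zfp839 by 0.26 ± 0.06, with adjusted p of 0.00429, 0.0133 and 0.00612. Zfp629 was at 23.0, 23.7, 28.1 and 23.5 CPM with activated platelets, much as with thrombin alone, and the log2 difference between these groups was 0.00 ± 0.08 (adjusted p 0.996). The Zfp839 call was lost without replicate 1 in all groups, at 0.0600. Zfp871, Zfp777, Zfp984, Zfp760, Zfp703 and Zfp706 fell by 0.14 to 0.23 on the log2 scale.

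**Figure D3:**
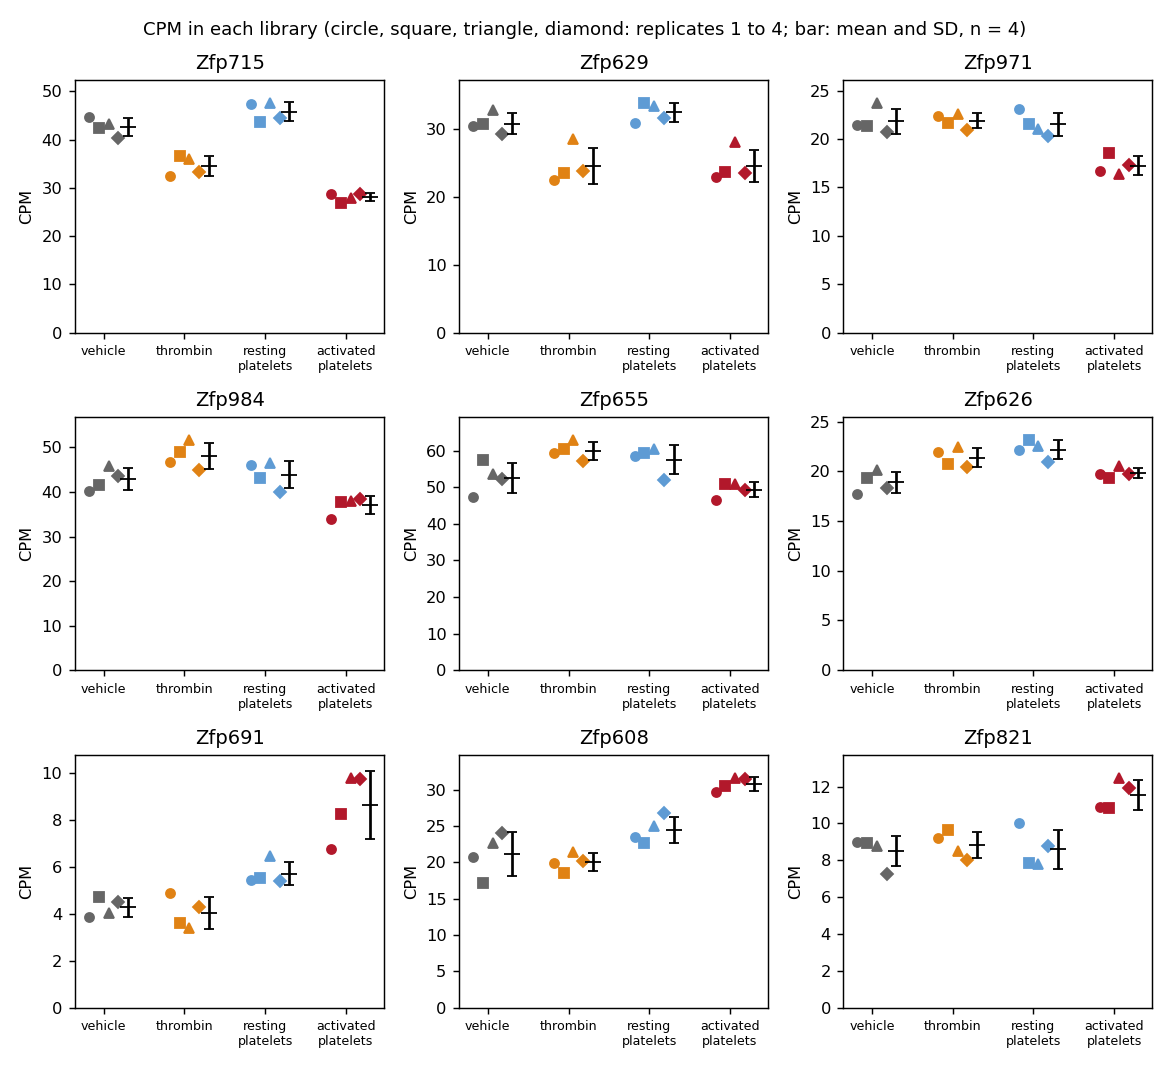
CPM of 9 members in each of the 16 libraries, by group on the x axis, with 1 symbol per replicate number and the mean and SD of 4 libraries beside them; each y axis starts at 0. Zfp715 is lowest in all 4 activated platelet libraries (26.9 to 28.7 CPM) and Zfp691, Zfp608 and Zfp821 are highest there.

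Against thrombin alone, 10 members rose and 25 fell with activated platelets, 24.8% of the 141, where 25.4% of all genes were called, 11.9% higher and 13.5% lower. The median log2 fold change was -0.09 over the members and -0.0037 over all genes. The count rests partly on single libraries: it was 21 without activated platelets 1 and 22 without activated platelets 3, and 15 without replicate 1 in all groups. In these fits 20.5%, 22% and 15.5% of all genes were called. With the replicate block 16 rose and 40 fell. With the GC and length correction added the split was 17 higher and 23 lower, and the members' median was -0.02.

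The rises were again led by Zfp691, by 1.09 ± 0.13 with an adjusted p of 1.70e-05, and by Zfp608, at 19.9, 18.5, 21.5 and 20.2 CPM with thrombin, by 0.62 ± 0.08 with 4.34e-05. Zfp821 rose by 0.39 ± 0.09 and Zfp609 by 0.26 ± 0.05. Zfp791 (0.49 ± 0.17), Zfp653 (0.27 ± 0.09) and Zfp956 (0.25 ± 0.09) had adjusted p of 0.0439, 0.0436 and 0.0480, and these calls were lost in 8, 8 and 13 of the 16 fits that left out 1 library. The Zfp791 call was lost without vehicle 2 or 3, thrombin 2 or 4, resting platelets 2 or activated platelets 1, 2 or 3, and that of Zfp653 without vehicle 2 or 3, thrombin 1, 3 or 4, resting platelets 3 or activated platelets 2 or 3. The Zfp956 call held only without vehicle 2 or activated platelets 1 or 4. Zfp628 rose by 0.26 ± 0.07, at 11.7, 13.1, 13.6 and 11.5 CPM with thrombin and 13.9, 15.5, 16.3 and 13.9 CPM with activated platelets, and did not pass without thrombin 1 or activated platelets 3, at 0.0531 and 0.0583.

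Among the falls, Zfp984 was at 46.8, 49.0, 51.6 and 44.9 CPM with thrombin and 33.9, 37.7, 38.1 and 38.4 CPM with activated platelets, with no overlap. It lies on chromosome 4 at 147838431 to 147900065. Its log2 fold change was -0.38 ± 0.06, with an adjusted p of 0.000239, and against vehicle it was -0.21 ± 0.06 with 0.0172. Zfp945, at 14.1, 15.3, 15.7 and 13.8 CPM with thrombin and 10.6 to 12.4 CPM with activated platelets, fell by 0.37 ± 0.07 with 0.00158. Zfp931 fell by 0.42 ± 0.08 and Zfp971 by 0.34 ± 0.06. Zfp960, Zfp712 and Zfp992 fell by 0.36 ± 0.10, 0.41 ± 0.12 and 0.33 ± 0.11, with adjusted p of 0.0138, 0.0203 and 0.0383. The Zfp712 call was lost without thrombin 4 or activated platelets 1 or 3, and that of Zfp992 without thrombin 1 or 3 or activated platelets 1, 2 or 4. With thrombin libraries these 3 genes had log2 values above vehicle of 0.31, 0.09 and 0.19, none past the test.

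Activated against resting platelets gave 4 higher and 16 lower members, 14.2% of the 141, where 15.8% of all genes were called, 7.34% higher and 8.49% lower. The median log2 fold change was -0.10 over the members, with 105 of 141 negative, and -0.0028 over all genes. With the replicate block 8 rose and 37 fell, with the GC and length correction added 10 rose and 18 fell, and without replicate 1 in all groups 8 were called. Zfp715 fell by 0.71 ± 0.05, 1.63-fold, with an adjusted p of 1.73e-07. Zfp810 fell by 0.44 ± 0.07 with 0.000601, from 14.5, 12.7, 12.9 and 12.9 CPM with resting platelets to 9.24, 10.5, 9.70 and 9.74 CPM with activated platelets. Zfp629 fell by 0.40 ± 0.08 with 0.00181.

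The 4 rises in that comparison were Zfp691 by 0.60 ± 0.13, Zfp821 by 0.42 ± 0.09, Zfp628 by 0.36 ± 0.07 and Zfp608 by 0.33 ± 0.08, with adjusted p of 0.00540, 0.00626, 0.00345 and 0.0124. Zfp608 was at 22.7 to 26.8 CPM with resting platelets, below its activated libraries in each case, and its adjusted p was 0.0886 without replicate 1 in all groups. Zfp871, an abundant member at 143, 153, 146 and 131 CPM with resting platelets and 113, 122, 125 and 114 CPM with activated platelets, fell by 0.27 ± 0.06 with 0.00322. Without replicate 1 that p was 0.0688.

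An interaction term measured how far the response to thrombin differed once platelets were present. It was called for 13 members, 3 higher (background 4.56% of all genes) and 10 lower (background 5.37%). This is 9.22% of members, where 9.93% of all genes were called. The median was -0.13 on the log2 scale over the members, with 101 of 141 negative, and -0.01 over all genes. Without activated platelets 3, where 7.66% of all genes were called, the count was 8. Without replicate 1 in all groups, where 1.69% of all genes were called, it was 2, Zfp691 at an adjusted p of 0.0250 and Zfp715 at 0.0156. With the replicate block 9 were higher and 32 lower, and with the GC and length correction added 7 and 10, with a median of -0.03.

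Zfp715 had an interaction of -0.41 ± 0.07 with an adjusted p of 0.00168: its thrombin difference was -0.30 without platelets and -0.71 with them. Zfp655, on chromosome 5 at 145168503 to 145184116 with whole counts throughout, was at 47.5, 57.4, 53.7 and 52.2 CPM with vehicle, 59.5, 60.4, 62.9 and 57.2 with thrombin, 58.5, 59.5, 60.5 and 51.9 with resting platelets, and 46.5, 50.9, 50.9 and 49.2 for activated ones. Its interaction was -0.41 ± 0.08 with 0.00557, from a difference of 0.19 without platelets to -0.22 with them. Zfp984 (-0.41 ± 0.09, adjusted p 0.00684) and Zfp626 (-0.34 ± 0.07, 0.00727) had the same pattern of signs. Without replicate 1 in all groups the adjusted p values of Zfp655, Zfp984 and Zfp626 were 0.107, 0.119 and 0.129.

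On the higher side, Zfp691 had an interaction of 0.67 ± 0.19, Zfp628 of 0.43 ± 0.10 and Zfp608 of 0.41 ± 0.12, with adjusted p of 0.0335, 0.0166 and 0.0358. Taken by replicate number, the sign held in 3 of 4 for Zfp691 and in all 4 for Zfp628 and Zfp608. The Zfp691 call was lost without vehicle 2 or 4, thrombin 2 or 3, resting platelets 1, 2 or 4, or activated platelets 3 or 4, at adjusted p of 0.0540 to 0.0707. That of Zfp608 was lost without vehicle 1, 3 or 4, thrombin 1 or 2, resting platelets 1, 2 or 3, or activated platelets 2, 3 or 4, at 0.0505 to 0.0739. Zfp628 lost its call without replicate 1 in all groups, at 0.107.

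Another 5 members were called lower in the interaction: Zfp931 (-0.40 ± 0.12), Zfp945 (-0.37 ± 0.10), Zfp810 (-0.37 ± 0.10), Zfp935 (-0.33 ± 0.08) and Zfp971 (-0.32 ± 0.08). By replicate number, the sign of the Zfp931 interaction held in 3 of 4. In fits that left out 1 library, the Zfp931 call held only without vehicle 4, thrombin 4, resting platelets 4 or activated platelets 2. That of Zfp945 was lost without vehicle 1 or 4, thrombin 2 or 3, resting platelets 2 or 3 or activated platelets 1 or 3, and that of Zfp810 without vehicle 1 or 4, thrombin 1 or 2, resting platelets 1 or activated platelets 1, 3 or 4. Zfp638, which the rule for named genes did not pick and which was chosen after its values were seen, was the 10th at -0.33 ± 0.06 with an adjusted p of 0.00188. Zfp638, also called NP220, recruits the HUSH silencing complex to unintegrated retroviral DNA. It was at 94.2, 93.2, 103 and 102 CPM with vehicle, 111, 108, 110 and 106 after thrombin, 107, 108, 107 and 100 for resting platelets and 90.5, 95.5, 94.4 and 94.1 for activated ones. With the block and the GC and length correction its interaction was -0.14 with an adjusted p of 0.0132. Those of Zfp931, Zfp945, Zfp971 and Zfp935 were -0.22, -0.14, -0.15 and -0.17, and these 4 did not pass, at 0.229, 0.250, 0.107 and 0.0675.

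Transcript GC content moved with these differences. The median GC content of the members' transcripts was 44.0%, against 50.5% over all tested genes with a value. Across the 141 members, Spearman's rho between GC content and the log2 fold change was -0.63 for thrombin against vehicle, 0.58 for activated platelets against thrombin, 0.17 for activated platelets against vehicle and 0.67 for the interaction. Over 14587 genes the same values were -0.45, 0.17, -0.06 and 0.39. Genes share libraries and are not independent replicates, so these are descriptions.

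Of the 56 members under 42% GC, 53 had a negative interaction, with a median of -0.26, and 6 of the 56 (10.7%) were called lower and 0 higher. The median of all 1113 genes in that range was -0.16, and 16.3% were called lower and 0.809% higher. The 48 members between 42% and 50% had a median of -0.13, and the 5723 genes there -0.08. The 37 members above 50% had a median of 0.10, with 11 negative, and the 7751 genes there 0.08. In the fit with both the replicate block and the GC and length correction, Zfp715, at 49.3% GC, had a called interaction of -0.33 with an adjusted p of 0.000561. Zfp655, at 46.6% GC, had -0.29 with 0.000522. The main fit had no block, and the block alone raised the share of all genes called from 9.93% to 29.1%. The adjusted p values of the main and the corrected fit are therefore not alike.

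**Figure D4:**
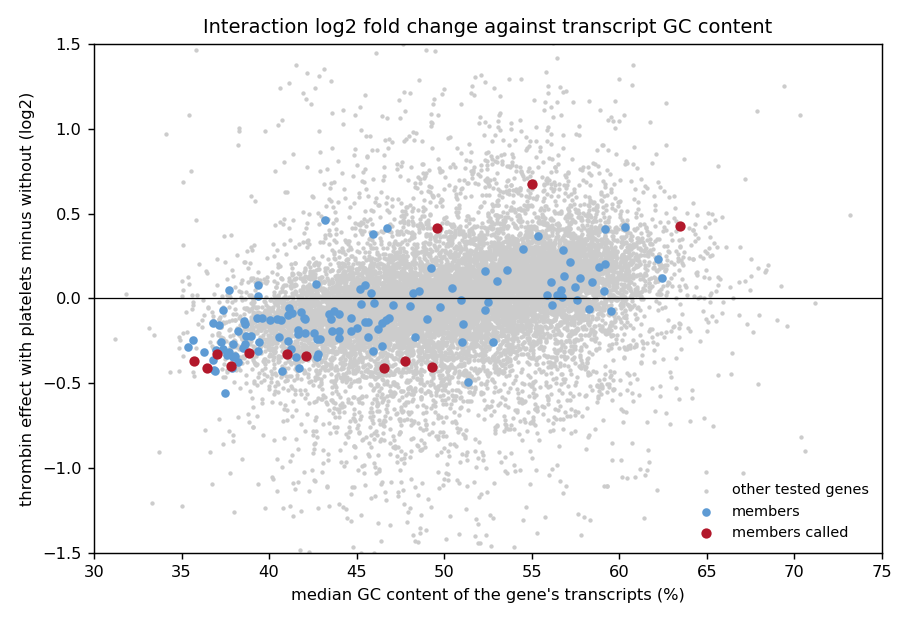
Interaction on the log2 scale (y axis) against the median GC content of each gene's transcripts (x axis, percent), with members in blue, members past an adjusted p of 0.05 in red and other tested genes in grey. Of the 56 members under 42% GC, 53 lie below 0; 102 of the genes drawn, none of them a member, lie outside the axes.

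Some members have a known role. Of the 19 kept of 21 on that list, 2 rose and 2 fell against vehicle with activated platelets, 21.1%, where 25.8% of all genes were called. The 2 rises were Zfp608 and Zfp609, and the falls were those of Zfp703 and Zfp706. Zfp706 was at 82.2, 79.6, 87.1 and 84.5 CPM with vehicle and 72.4, 75.4, 78.6 and 77.2 CPM with activated platelets, a fall of 0.14 ± 0.04 on the log2 scale with an adjusted p of 0.0253. It did not pass without vehicle 3 or 4 or activated platelets 1 or 2, at 0.0531 to 0.0832, or without replicate 1 in all groups, at 0.174. Zfp703 was at 59.8, 60.2, 69.5 and 65.6 CPM with vehicle and 55.6, 51.3, 60.4 and 57.3 CPM with activated platelets. Its groups overlapped, its adjusted p was 0.0497, and the call was lost without vehicle 3 or 4, thrombin 1 or 2, resting platelets 1 or 4, or activated platelets 1, 2 or 4, with a highest p of 0.155.

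Zfp809, which with Trim28 silences murine leukaemia virus by binding its primer binding site, was at 13.0, 13.0, 12.7 and 13.7 CPM with resting platelets and 10.3, 12.2, 10.3 and 11.4 CPM with activated platelets. It fell by 0.24 ± 0.07 between these groups, with an adjusted p of 0.0211, lost without resting platelets 4 or activated platelets 1 or 3, and its log2 difference from vehicle was -0.17 ± 0.07 with 0.0802. The difference of Zfp809 from vehicle passed with the replicate block, at 0.0453, with the GC and length correction added, at 0.0240, and without vehicle 2 or activated platelets 2, at 0.0465 and 0.0281. Zfp746, or PARIS, a parkin substrate that represses Ppargc1a, was at 28.0, 28.2, 30.1 and 26.1 CPM with thrombin and 29.7, 30.2, 33.7 and 31.8 CPM with activated platelets. The groups overlapped, and the log2 fold change was 0.16 ± 0.05 with an adjusted p of 0.0401, lost without thrombin 1, 2 or 4, resting platelets 3, or activated platelets 3 or 4.

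Zfp704 and Zfp827 moved with the replicate number. Zfp704, a glucocorticoid-induced gene, was at 102, 122, 122 and 101 CPM with vehicle and 84.8, 109, 103 and 84.1 CPM with activated platelets. Its replicates 1 and 4 were low in both groups, and the log2 difference of -0.23 ± 0.11 had an adjusted p of 0.128, against 9.60e-06 with the replicate block. Zfp827, which recruits the NuRD complex at telomeres, was at 7.01, 4.18, 4.57 and 6.35 CPM with vehicle and 4.73, 3.47, 2.48 and 4.32 CPM with activated platelets. Each replicate number was lower with activated platelets, by -0.56 ± 0.23 on average, with an adjusted p of 0.0908 and 3.80e-05 with the block.

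The remaining known-role members gave no call against vehicle with activated platelets. Zfp622, a factor of large ribosomal subunit assembly, had a log2 difference of -0.16 ± 0.06 with an adjusted p of 0.0609, and -0.16 with 0.00701 under the replicate block, and it also passed without resting platelets 3, at 0.0272, or activated platelets 3, at 0.0399. Zfp644, a partner of the methyltransferases G9a and GLP, was at 38.0 to 42.1 CPM with vehicle and 40.8 to 41.5 CPM with activated platelets. Zfp652, which binds the corepressor Cbfa2t3, and Zfp687, a partner of Zmynd8, had log2 differences of -0.12 ± 0.07 and 0.03 ± 0.05. Zfp652 passed with the block, at an adjusted p of 0.0198, and Zfp687 did not in any of the 24 alternative fits. Zfp830 differed by 0.15 ± 0.06 with 0.106, and passed with the block and the GC and length correction, at 0.0338, and without vehicle 4, at 0.0461. The log2 differences of Zfp637, Zfp639, Zfp668, Zfp689, Zfp692 and Zfp768 were -0.11, -0.05, 0.02, 0.11, -0.10 and -0.03, and the groups of each overlapped. None of these 6 passed in any of the 24 alternative fits, where the lowest adjusted p was 0.0871, for Zfp637.

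Several clusters held members of mostly 1 sign, and others were mixed. Zfp715 lies among 6 members between 41282955 and 43243134 on chromosome 7. Of these, 3 were negative against vehicle with activated platelets and 3 against thrombin. Of the 5 members between 6134488 and 7212997 on that chromosome, 4 were negative against vehicle and 2 against thrombin. The 9 members between 175214229 and 177721858 on chromosome 2 (Zfp968, Zfp965, Zfp966, Zfp967, Zfp973, Zfp970, Zfp972, Zfp971 and Zfp931) were all negative against vehicle with activated platelets, with a median of -0.22 and 2 called lower. Against thrombin 9 of 9 were negative, with a median of -0.31 and 4 called lower. Counts were not whole in any library for 8 of these 9, so they may share reads and are not taken as 9 separate measurements. Over all genes, 7930 of 15610 were negative against vehicle and 7917 against thrombin, and 13.6% and 13.5% were called lower.

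On chromosome 17, 14 members lie between 21603972 and 23086285, from Zfp677 to Zfp945, and 2 of them had no library with a whole count. Against thrombin 13 of 14 were negative, with a median of -0.18 and 4 called lower. Against vehicle 11 of 14 were, with a median of -0.10 and 2 called lower. Of all genes, 13.5% were called lower against thrombin and 13.6% against vehicle. The 6 members between 146533487 and 147933583 on chromosome 4, among them Zfp992 and Zfp984, had a median of -0.31 against thrombin, with 2 called lower. The 9 members between 126842168 and 127485168 on chromosome 7, among them Zfp747, Zfp629 and Zfp668, went the other way against thrombin, with a median of 0.05 and 2 negative. None of them was called there, where 25.4% of all genes were. Transcript GC content was 36.3% to 41.3% in the chromosome 2 cluster and 35.4% to 42.7% in the chromosome 17 cluster. It was 36.4% to 41.8% in the chromosome 4 cluster and 52.5% to 59.5% in the chromosome 7 cluster of 9 members. The part of GC content in the signs of single clusters was not tested.

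**Figure D5:**
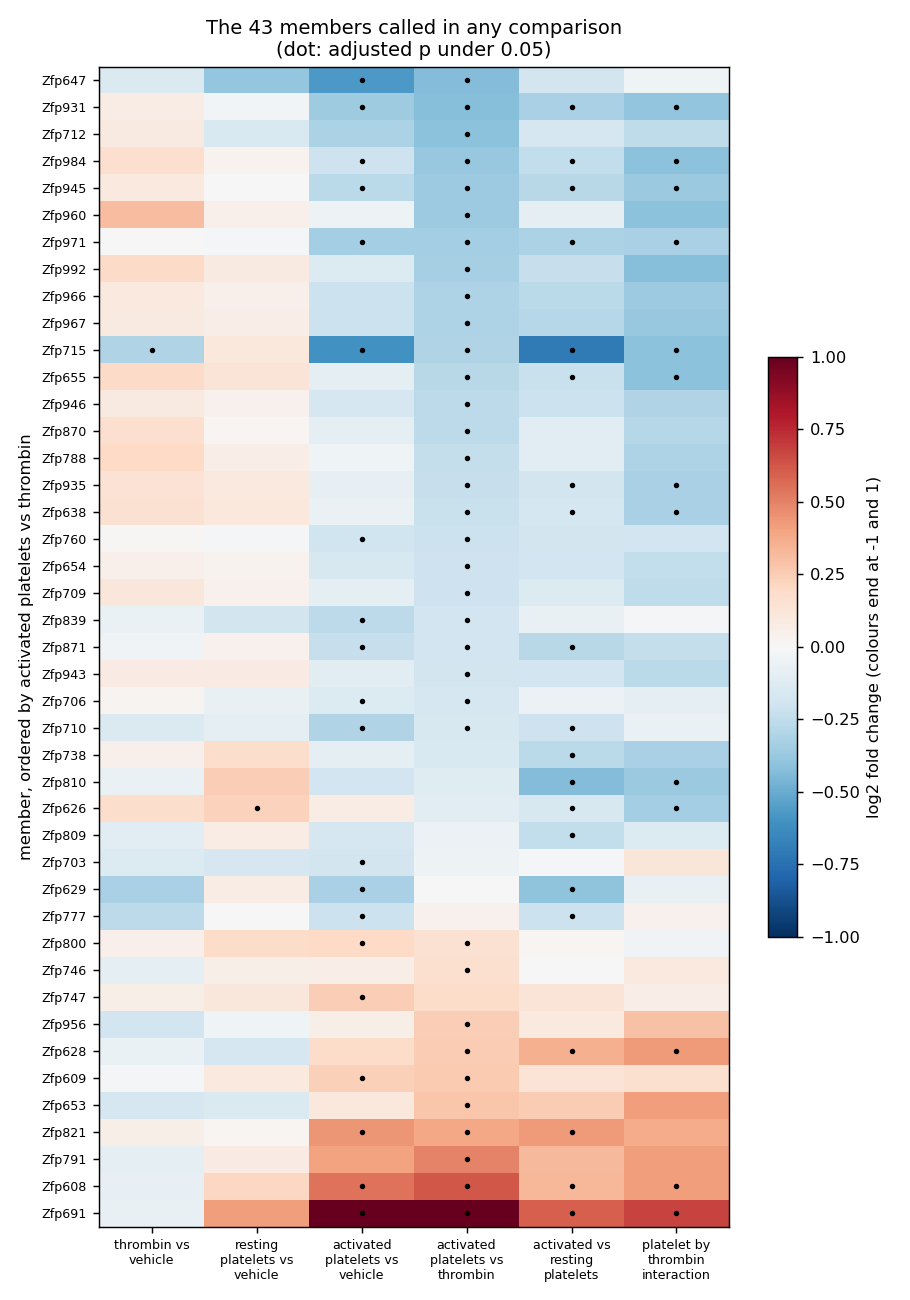
Log2 fold change of the 43 members past an adjusted p of 0.05 in any comparison (rows, ordered by activated platelets against thrombin) in the 6 comparisons (columns), red for higher and blue for lower, with a dot where the test was passed. Comparisons share libraries. Zfp715 is blue in every column but resting platelets against vehicle, and Zfp691 reaches 1.09, the highest value drawn.

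Comparisons with activated platelets share those libraries, so their counts are not separate evidence. Transcripts of the proteins through which KRAB zinc fingers silence chromatin were counted in the same libraries. Of 25 listed partners, 3 rose and 6 fell against vehicle with activated platelets, 36.0%, where 25.8% of all genes were called. Dnmt3a, a DNA methyltransferase, was at 235, 298, 214 and 212 CPM with vehicle and 133, 163, 142 and 125 CPM with activated platelets, with no overlap. It fell by 0.77 ± 0.12 on the log2 scale with an adjusted p of 0.000170, and had an interaction of -0.64 ± 0.17 with 0.0241. Trim28, the scaffold, was at 156, 163, 165 and 168 CPM with vehicle, 144, 139, 147 and 143 after thrombin, 156, 153, 165 and 162 for resting platelets and 145, 134, 150 and 148 for activated ones.

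Trim28 thus fell by 0.18 ± 0.04 against vehicle, with an adjusted p of 0.00477, and stood 0.01 ± 0.04 from thrombin alone. Trim24, its relative, fell by 0.32 ± 0.06 and Dnmt1, the maintenance methyltransferase, by 0.28 ± 0.05. Chd3, a NuRD subunit, fell by 0.15 ± 0.04 and Cbx3, an HP1 protein, by 0.23 ± 0.07, and the Cbx3 groups overlapped. Their listed relatives did not follow. Chd4 differed by -0.02 ± 0.06 and Hdac1 by 0.11 ± 0.05, and Cbx1 and Cbx5 by 0.05 ± 0.04 and 0.20 ± 0.10, none called. Setdb1 had a log2 difference of -0.08 ± 0.04 with an adjusted p of 0.105. The rises were Mphosph8 by 0.29 ± 0.05 and Pphln1 by 0.24 ± 0.04, both of the HUSH complex, and Atf7ip, a Setdb1 partner, by 0.12 ± 0.04. Tasor, also listed and of the HUSH complex, differed by 0.05 ± 0.05 and was not called.

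Other zinc finger genes were measured beside the members. The 182 kept of 196 genes numbered Zfp1 to Zfp599 had a median of -0.07 against vehicle with activated platelets, with 15 called higher and 29 lower (24.2%). The 53 kept of 57 Zbtb, Zkscan and Zscan genes also had a median of -0.07, with 2 higher and 11 lower (24.5%). The median of the Zfp600 to Zfp999 members there was -0.06. Against thrombin these sets had 19.2% and 13.2% called with medians of -0.08 and -0.01, and the Zfp600 to Zfp999 members 24.8% with -0.09. The interaction medians were -0.09 and -0.06, against -0.13 for the members. The difference between the sets was not tested.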

How the data were processed

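RNA from 16 libraries (TruSeq Stranded mRNA, 4 groups of 4) was analysed. The deposited values are estimated counts per gene, and 25.5% of values above 0 were not whole. The submitters' processing notes name cutadapt 2.5, STAR 2.7.2b, featureCounts 1.6.4, GRCm39 and mm10; no source used here gives the settings for strand or for multiply mapped reads. Coordinates per the deposited table are on GRCm39. Expected counts were rounded first (a change of 0.00734% of counts) and tested with edgeR 4.0.16 (R 4.3.3, TMM, quasi-likelihood, all 4 groups, no covariate). The 15610 genes tested were those kept by the low-count filter of edgeR by group (filterByExpr). Benjamini-Hochberg adjustment was made over all of them, with a threshold of 0.05. CPM of single genes are from the same TMM-scaled library sizes, while CPM of the marker sums are from unscaled totals over all listed genes. Totals of 22.6 to 30.6 M counts limit precision for the members near 1 CPM.

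The members and lists were chosen with earlier results of these data known. Named genes are the 8 largest called rises and falls of each comparison above a mean of 1 CPM in at least 1 of the groups compared, Zfp715, a list of members with known roles, and the partners with the smallest p. Zfp638, Zfp777, Zfp760, the partners beyond that rule and the members named for their level, count filter or cluster were chosen after their values were seen. Alternatives were DESeq2 1.42.0, limma-voom 3.58.1, no filter, only the groups compared, single libraries or replicate 1 left out, and the replicate number as a block, alone or with a GC and length correction. The numbers paired the libraries: 24 correlations of deviations between libraries of the same number were 0.29 to 0.617, those of other pairs -0.436 to 0.253, and each of the 16 libraries was closest to those of its own number. No label explains the number, so the pairing is read from the values alone. A chi-square comparison of all 24 pairs within groups found no pair within sampling noise. Protein sequences and finger classes were not analysed here.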

Additional observations from a re-analysis of the deposited data

Results flagged for a closer look

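Among 180 groups of 4 libraries checked over the named members, 13 had 1 library apart from the other 3, by Dixon's criterion on its gap to the nearest over the group's range. This criterion marks some groups by chance, about 0.05 of them. With activated platelets these were Zfp629 at 28.1 CPM in replicate 3, Zfp644 at 41.5 CPM in replicate 4, Zfp647 at 2.16 CPM in replicate 4, Zfp839 at 19.6 CPM in replicate 1, Zfp935 at 17.8 CPM in replicate 4 and Zfp984 at 33.9 CPM in replicate 1. With resting platelets they were Zfp644 at 42.8 CPM in replicate 2, Zfp691 at 6.46 CPM in replicate 3 and Zfp810 at 14.5 CPM in replicate 1. With thrombin they were Zfp652 at 35.4 CPM in replicate 3 and Zfp692 at 11.6 CPM in replicate 2, and with vehicle Zfp644 at 38.0 CPM in replicate 1 and Zfp821 at 7.28 CPM in replicate 4. The 3 other libraries of Zfp644 with activated platelets differed by less than 0.001 CPM, so a small gap sufficed there.

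The thrombin effect differed between cells with and without platelets, by the edgeR interaction test, for 13 members. The log2 difference was -0.41 for Zfp655, -0.41 for Zfp984, -0.41 for Zfp715, -0.40 for Zfp931, -0.37 for Zfp945, -0.37 for Zfp810, -0.34 for Zfp626, -0.33 for Zfp935, -0.33 for Zfp638 and -0.32 for Zfp971. It was 0.41 for Zfp608, 0.43 for Zfp628 and 0.67 for Zfp691. The thrombin dose may differ between the groups with and without platelets, since labels and protocol disagree, and its part in these values was not tested.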

How the results depend on the processing

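With the replicate block, the members called were 14 for thrombin against vehicle, 18 for resting platelets against vehicle, 40 for activated platelets against vehicle, 56 against thrombin, 45 against resting platelets and 41 for the interaction, and all genes called rose as well, to 8.23%, 21.5%, 42.5%, 41.6%, 34.5% and 29.1%. With the block and the GC and length correction the first 3 counts were 3, 13 and 40; the others were 40, 28 and 17, and all genes called were 3.04%, 17.6%, 44.1%, 43.0%, 32.7% and 22.5%. The DESeq2 test gave 4 for thrombin and 5 for resting platelets against vehicle, where it called 1.02% and 6.11% of all genes. Fitting only the groups compared gave 0, 0 and, against thrombin, 20, and no filter on low counts gave 22 against thrombin. All genes called fell as well in these fits. With only the groups compared they were 11 of 15127 for thrombin and 188 of 15087 for resting platelets against vehicle. The main fit called 45 and 529 of 15610 there. Against thrombin they were 22.1% with only the groups compared and 12.2% of 28111 genes with no filter, where the main fit called 25.4%. Leaving out replicate 1 in all groups gave 0, 0, 11, 15, 8 and 2 members, and all genes called fell as well, to 0.0257%, 0.372%, 16.2%, 15.5%, 6.24% and 1.69%. Leaving out 1 library gave 0 to 2 members for thrombin, 0 to 2 for resting platelets, 16 to 22 for activated platelets against vehicle, 21 to 35 against thrombin, 16 to 23 against resting platelets and 8 to 17 for the interaction. All genes called in these fits ran from 0.0444% to 0.197%, 1.32% to 3.49% and 21% to 25.9% for the first 3 comparisons. For the others they ran from 20.5% to 25.4%, 11.4% to 16.2% and 7.06% to 10.6%. The thrombin count was 2 without thrombin 3, and the resting platelet count was 2 without activated platelets 1. The cause of these changes was not tested. DESeq2 size factors and limma-voom moved none of the 6 counts past 1.5 times, nor did a minimum of 100 counts, which left 119 members. Of 76 values for named genes, the replicate block turned no call off and 5 on. Near-zero differences from vehicle with activated platelets changed sign: Zfp644 ran from -0.02945 (without vehicle 1) to 0.0170 (without vehicle 3) and was -0.01919 without replicate 1, Zfp668 ran from -0.0006655 (without vehicle 4) to 0.0359 (without activated platelets 4), and Zfp768 ran from -0.108 (without activated platelets 3) to 0.01236 (without activated platelets 4) and was 0.02526 without replicate 1.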
